A study of Mus musculus with 16 samples.

Results

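The 6 antigen receptor loci of the mouse genome (Igh, Igk, Igl, Tcra/Tcrd, Tcrb and Tcrg) were followed in the H3K4me1 profiles of unstimulated dendritic cells and unstimulated 3T3 fibroblasts. Members are the summits, the highest points of called peaks, that lie between fixed mm9 coordinates: Igh on chromosome 12 from 114400000 to 117450000, Igk on chromosome 6 from 67500000 to 70750000, Igl on chromosome 16 from 19000000 to 19350000, Tcra/Tcrd on chromosome 14 from 52800000 to 54900000, Tcrb on chromosome 6 from 40800000 to 41550000, and Tcrg on chromosome 13 from 19250000 to 19500000. They number 281 of 161656 summits, 215 of 79796 in dendritic cells and 66 of 81860 in 3T3. The loci were chosen by position after a long chromosome 12 stretch marked in dendritic cells only had been seen in these lists, so differences between the lists are given as description, without a test.

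Immunoglobulin genes (Igh for the heavy chain, Igk and Igl for the light chains) are assembled in B cells, and T cell receptor genes (Tcra, Tcrb, Tcrg and Tcrd) in T cells. Each locus holds V segments, J segments and constant regions, and some loci have D segments too. The RAG recombinase joins one segment of each kind. The known lymphoid enhancers lie mostly near the J and constant segments, and in developing lymphocytes the V arrays are themselves opened and transcribed before joining. Dendritic cells and fibroblasts make neither receptor. H3K4me1 marks enhancers, active and poised, and the flanks of promoters.

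Unstimulated dendritic cells had been grown from mouse bone marrow progenitors that carried a retroviral hairpin against the histone demethylase JmjD2d, selected with histidinol, and differentiated in GM-CSF with SCF and then in GM-CSF alone. The 3T3 fibroblasts, an established line, were grown under standard conditions, with no hairpin named. One field of the 3T3 label names dendritic cells, while its title, description, growth protocol and list header name 3T3. Each cell type is 1 library, no dendritic cells lacking the hairpin enter here, and effects of cell type and hairpin cannot be told apart. The labels name no mouse strain. That the dendritic cell culture was free of lymphocytes rests on its label and was not checked, since no summit can be assigned to a marker gene without an mm9 annotation.

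The RefSeq table at hand is of GRCm38, so it gives the content and order of genes at each locus but not the segment under a summit. Where the segment arrays begin and end within the fixed mm9 coordinates is thus not known here. Neighbouring genes may lie inside those coordinates. It names 215 Igh segments (120 V, 63 V pseudogenes, 10 D, 4 J and 8 constant, beside D pseudogenes), from Igha and the other constant genes through the D and J segments to the V array, with Tmem121 before the locus and Zfp386 after it. The Igk locus has 102 V segments and 60 V pseudogenes, ends with the J segments and Igkc, and is followed by Rpia. The Tcra/Tcrd locus has 119 V segments, ends with 53 J segments (Tcra and Tcrd together) and Trac, and is followed by Dad1, a subunit of the oligosaccharyl transferase. The Tcrb locus has 22 V segments, and 13 other protein-coding genes, the trypsinogens Try4, Try5, Try10, Prss1 and Prss2 among them, lie within it. The Igl locus has only 3 V segments, and the Tcrg locus 7. Segments of one array are often near copies of each other. The sources used here do not say how 36 bp reads that match several places were treated. Both the number and the positions of summits within V arrays are uncertain to that extent.

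Dendritic cells carried H3K4me1 summits at Igh, Tcrb and Tcrg at 1.21, 1.19 and 1.455 times the density of their whole list, while 3T3 were below their own list at all 6 loci. The dendritic cell list had 30.3 summits per Mb and the 3T3 list 31.02, each over the length up to the last summit of every chromosome. The dendritic cell intervals given below for Igh, Tcrb and Tcrg include the density of that list, at Igh only just. Likewise, the 3T3 interval at Tcrb includes the density of the 3T3 list. At Igh, dendritic cells had 112 summits in 3.05 Mb (36.7 per Mb, 95% Poisson interval 30.2 to 44.2) and 3T3 had 7 (2.30 per Mb, 0.923 to 4.73). At Igk, with 3.25 Mb, dendritic cells had 17 (5.23 per Mb, 3.05 to 8.38) and 3T3 5 (1.54 per Mb, 0.50 to 3.59), so both lists were sparse there. These intervals cover counting error only, here and below.

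Among the T cell receptor loci, Tcra/Tcrd and Tcrb carried 10 or more summits of both lists. Tcra/Tcrd carried 42 dendritic cell summits (20 per Mb, 14.4 to 27.03) and 35 3T3 summits (16.7 per Mb, 11.6 to 23.2). Tcrb carried 27 (36 per Mb, 23.7 to 52.4) and 16 (21.3 per Mb, 12.2 to 34.6). The short Tcrg locus had 11 dendritic cell summits (44 per Mb, 21.96 to 78.7) and 2 in 3T3 (8 per Mb, 0.969 to 28.9), and Igl had 6 (17.1 per Mb, 6.29 to 37.3) and 1 (2.86 per Mb, 0.0723 to 15.9). The intervals of the lists overlap at every locus but Igh.

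**Figure D1:**
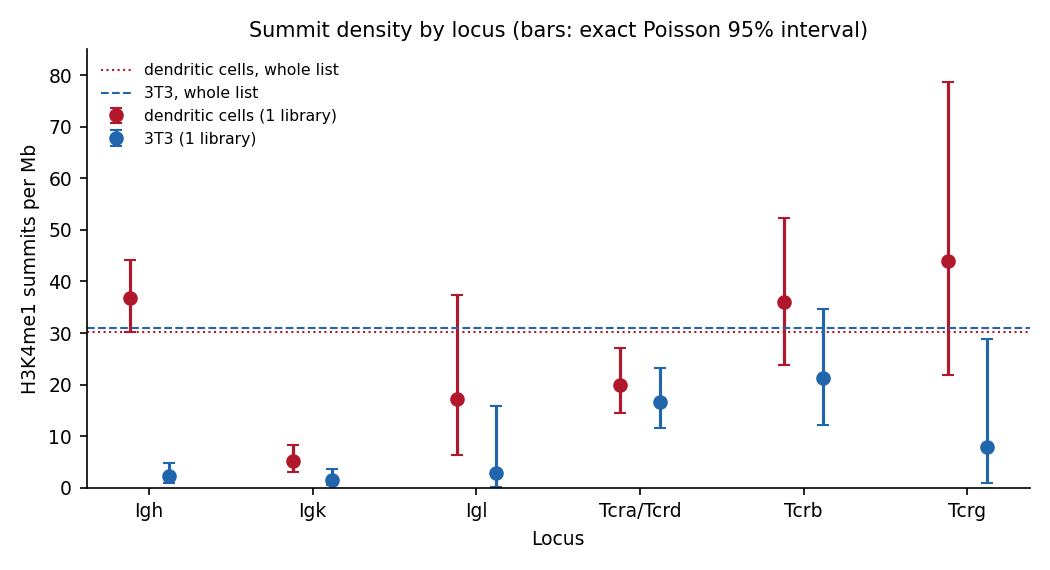
H3K4me1 summits per Mb (vertical axis) at each of the 6 loci (horizontal axis) in dendritic cells and 3T3, 1 library each, with exact Poisson 95% intervals as bars and the density of each whole list as a horizontal line. The 3T3 point lies below the 3T3 line at every locus, whereas the dendritic cell points of Igh, Tcrb and Tcrg lie above the dendritic cell line. The intervals of those dendritic cell points include the line.

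Set against the totals of the lists, the log2 ratio of dendritic cell to 3T3 summits was 4.04 at Igh (2.95 to 5.38), a 16.4-fold difference. It was 2.62 at Igl (-0.42 to 8.15), 2.496 at Tcrg (0.30 to 5.71) and 1.80 at Igk (0.30 to 3.60). At Tcrb it was 0.79 (-0.15 to 1.78), and at Tcra/Tcrd 0.30 (-0.38 to 0.99). The intervals of Igl, Tcrb and Tcra/Tcrd include 0. The direction at Tcra/Tcrd was reversed in some settings, at -0.53 when the same number of highest summits was taken from each list and at -0.31 against the flanking 2 Mb. Chromosome 12 as a whole holds a smaller share of the 3T3 list (2.99%) than of the dendritic cell list (4.16%). Relative to chromosome 12 the Igh value was 3.56.

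With both flanks pooled, the lists were denser beside the loci than in them, with 1 exception. In the 2 Mb on either side of Igk there were 54.5 dendritic cell and 56.5 3T3 summits per Mb, against 5.23 and 1.54 inside. The 3T3 density in the flanks was 39 per Mb at Igh, 54 at Igl, 38.5 at Tcra/Tcrd, 36.5 at Tcrb and 23.5 at Tcrg, above the density inside at every locus. For dendritic cells the flanks had 55.5 per Mb at Igh, 62 at Igl, 57.3 at Tcra/Tcrd and 43 at Tcrb. The exception was Tcrg in dendritic cells, with 37.3 per Mb in the flanks and 44 inside. The flanks of Igh were uneven in 3T3, with 125 summits in the 2 Mb before the locus and 31 in the 2 Mb after it, against 156 and 66 in dendritic cells. Taken by side, the dendritic cell density was below that inside the locus in the 2 Mb after Igh (33 per Mb), after Tcrb (15 per Mb) and before Tcrg (23 per Mb).

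Along Igh, the dendritic cell summits formed a group at the edge on the side of the constant genes and Tmem121 in the GRCm38 order. A small group followed farther in, and then a long field over the second part of the locus. The edge group lay 2.0 to 60.7 kb from the locus start (114402048 to 114460695) and held 6 dendritic cell and 4 3T3 summits. None of them was within 1000 bp of a summit of the other list, where 69.4% and 70.2% of the whole lists were not. The closest, at 114424449 in dendritic cells and 114425524 in 3T3, lay 1075 bp apart. The highest dendritic cell summit of the group scored 71 and the highest 3T3 summit 33. The score is the number deposited for each summit, taken here as the height of the signal, and it has no recorded scaling between lists, so it is read within a list. The next group, from 114662109 to 114683849, held 3 dendritic cell summits with scores of 90, 50 and 25, and no 3T3 summit. The nearest 3T3 summit to the one that scored 90 lay 222 kb away. The 3 summits of this group stood alone, with none in the 763.8 kb that followed, nor any 3T3 summit there.

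Past that gap the field of dendritic cell summits began with a lone one, 1047.6 kb from the start, that scored 31. A group of 10 spread over 184.5 kb (115700493 to 115884963) and had scores from 17 to 115. The main field, from 116171203 to 117444565, held 92 dendritic cell and 3 3T3 summits. By distance from the locus start, the dendritic cell count was 9 in the first 0.5 Mb, 0 from 0.5 to 1 Mb, 11 from 1 to 1.5 Mb, 13 from 1.5 to 2 Mb, 33 from 2 to 2.5 Mb and 42 from 2.5 to 3 Mb. Summits were thus densest toward the end on the side of the V array and Zfp386 in the GRCm38 order. How many of them lie past the last V segment is not known here. The median scores of these 500 kb windows did not follow the counts, at 31, 31, 39, 35 and 32.5 in the 5 windows with summits. In 3T3 the same windows had 4, 0, 0, 0, 0 and 1 summits, and the last 50 kb of the locus had 2.

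**Figure D2:**
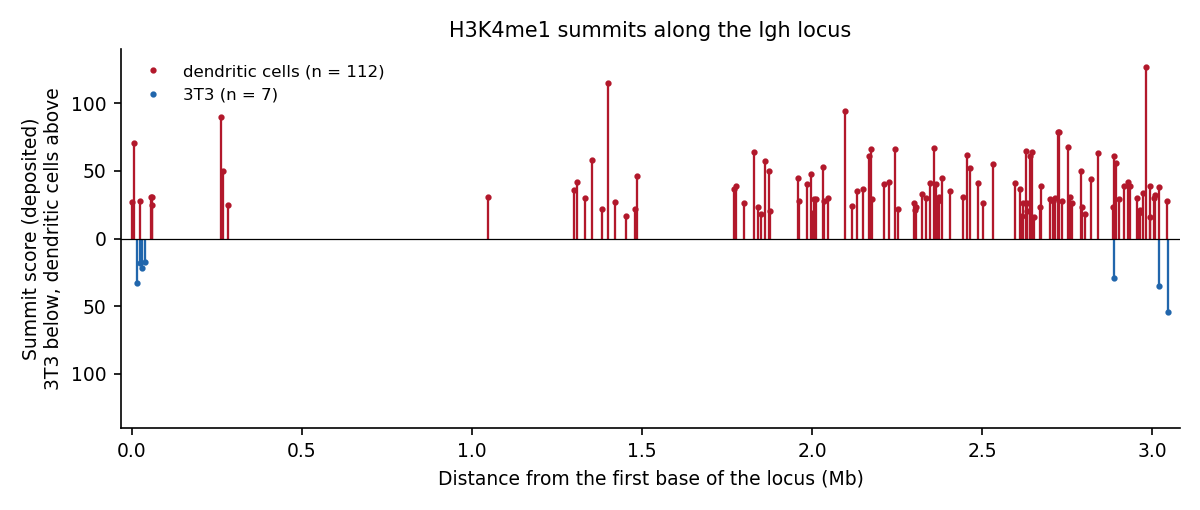
Deposited score of every summit (vertical axis, dendritic cells upward and 3T3 downward) against its distance in Mb from the first base of the Igh locus (horizontal axis), 1 library per cell type. The 112 dendritic cell summits crowd the right of the plot. Of the 7 3T3 summits, 6 sit in the outer 100 kb of the locus and the other 162 kb from its end, and the middle has none.

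The densest Igh windows of 100 kb were those from 117000001 to 117100000, from 117100001 to 117200000 and from 117300001 to 117400000, tied in number (the last added for the tie after its values were seen). In dendritic cells 11 summits fell in each (5.49 to 19.7), with median scores of 26, 30 and 34, and in 3T3 none. Across all chromosomes 8.29% of windows held as many dendritic cell summits. The windows of Igh with most 3T3 summits were the first, from 114400001 to 114500000, with 4 (1.09 to 10.2) beside 6 dendritic cell summits, and that from 117200001 to 117300000, with 1 beside 6.

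The 3 highest dendritic cell summits of Igh stood in different parts of the field. That at 117381280 scored 127, a height reached by 1.32% of the dendritic cell list, and its nearest 3T3 summit was 39 kb away. The one at 115801382 scored 115 (2.28% of the list as high) and lay 1361 kb from any 3T3 summit. The third, at 116496775, scored 94 (5.64%) and lay 791 kb away. The 3 highest 3T3 summits were lower in their own list: 54 at 117444565, 35 at 117420249 and 33 at 114415752, heights reached by 21.7, 46.7 and 51.2% of the 3T3 list.

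The 3T3-free stretch of Igh held more dendritic cell summits than any other such stretch of 500 kb or more, though not the most per Mb. It was not among the longest. Between the 3T3 summits at 114439937 and 117287891 lay 2.85 Mb with no 3T3 summit and 93 dendritic cell summits (32.7 per Mb). Stretches of 500 kb or more between neighbouring 3T3 summits numbered 596, and 129 of them exceeded 2 Mb. By length the Igh stretch ranked 69, and by dendritic cell summits inside it ranked 1, ahead of a stretch elsewhere with 56. The median over stretches beyond 2 Mb was 5 dendritic cell summits. This stretch prompted the choice of loci, so its rank is a description. Of the 79796 dendritic cell summits, 529 lay over 500 kb from any 3T3 summit. They included 52 of the 112 in Igh, 9 of the 17 in Igk and 2 of the 42 in Tcra/Tcrd. Those of Igh all lay in the stretch that prompted the choice, so their number repeats it. The Igk stretch of 2.60 Mb, from 67430783 to 70030144, held 11 dendritic cell summits, and the Tcra/Tcrd stretch of 1.27 Mb, from 52959085 to 54224795, held 9. In the other direction, stretches of 500 kb or more without a dendritic cell summit numbered 785. The fullest of them outside the loci held 153 3T3 summits in 1.59 Mb, more than the 93 of Igh.

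**Figure D3:**
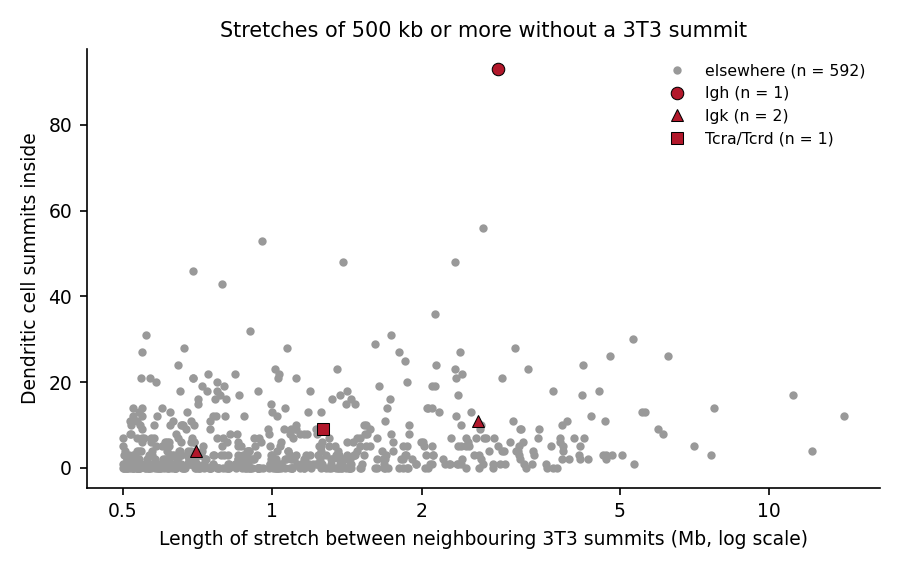
Stretches of 500 kb or more between neighbouring 3T3 summits, by length in Mb on a log scale (horizontal axis) and number of dendritic cell summits inside (vertical axis), 1 point per stretch, those lying mostly in an antigen receptor locus in red. The Igh stretch, with 93 summits, is the highest point, and the Igk and Tcra/Tcrd stretches lie among the 592 others.

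In contrast to Igh, most of the Igk locus had no summit of either list. Of its 32 windows of 100 kb, 26 were empty in both, where 9520 of 26409 were over all chromosomes. The first 700 kb held no dendritic cell summit, and 8 followed from 68200359 to 68409900, of which the highest scored 47 and the median was 24. A lone summit at 68536735 scored 28. The 2123 kb that followed had no dendritic cell summit, and inside it lay a single 3T3 summit, at 70030144 with a score of 22. The densest window, from 68200001 to 68300000, had 6 in dendritic cells and none in 3T3. The window from 70600001 to 70700000 followed with 2.

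At the other end of Igk, the side of Igkc and Rpia in the GRCm38 order, both cell types were marked. There, 8 dendritic cell and 4 3T3 summits lay between 70659427 and 70748191. The highest dendritic cell summits were 67 at 70712606, 60 at 70736477 and 54 at 70724154. The highest 3T3 summit of the locus, 99 at 70736719 (4.41% of the 3T3 list as high), lay 242 bp from the dendritic cell summit that scored 60. The other 3T3 summits scored 38 at 70731451, 29 at 70743091 and 20 at 70748191. Those at 70743091 and 70748191 also had a dendritic cell summit within 1000 bp, 39 and 476 bp away and scoring 37 each. The 242 bp neighbours lay only 13.5 kb from the locus boundary, and summits of both lists continued beyond it.

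Within its fixed coordinates, Tcra/Tcrd was marked in both cell types at the edges, where neighbouring genes may lie, and less densely in the middle. The first group, from 52809751 to 53071745, held 16 dendritic cell and 10 3T3 summits. Of these, 7 and 6 had a counterpart within 1000 bp. Its highest dendritic cell summit, 65 at 53070606, lay 112 kb from any 3T3 summit. Over the next stretch, dendritic cells had 5 scattered summits that scored between 19 and 31, and 3T3 had none from 52959085 to 54224795.

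The later part of Tcra/Tcrd held runs of one cell type side by side. A run of 3 3T3 summits from 54224795 to 54262846, with scores from 19 to 35, had no dendritic cell summit among it. It was followed by 10 dendritic cell summits from 54371798 to 54524507 without a 3T3 summit. Those 10 were low, with scores from 17 to 28 and 7 of them under 26, the 25th percentile of the dendritic cell list. The window from 54700001 to 54800000 then held 7 3T3 summits (2.81 to 14.4) and no dendritic cell summit.

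The last group of Tcra/Tcrd, from 54651919 to 54880422, was on the side of the J segments, Trac and Dad1 in the GRCm38 order. It held 22 3T3 and 11 dendritic cell summits, 7 of each with a counterpart. The window from 54800001 to 54900000 was the densest of the locus in both lists, with 11 dendritic cell (5.49 to 19.7) and 12 3T3 summits (6.20 to 21.0). Across all chromosomes 4.52% of windows held as many 3T3 summits. The next by dendritic cell summits was the window from 52800001 to 52900000, with 8 beside 5 in 3T3. The highest 3T3 summit of all 6 loci, 109 at 54810843 (3.08% of its list as high), had no dendritic cell summit within 6232 bp. The highest dendritic cell summit of the locus, 84 at 54880385 (8.44% as high), lay 37 bp from a 3T3 summit that scored 44.

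Tcrb showed marked stretches of both lists on either side of a long summit-free gap. A first group of 3 dendritic cell summits from 40823686 to 40843611 had no 3T3 counterpart, and its highest scored 64, at 40841666. From 40969741 to 41223623 there were 18 dendritic cell and 10 3T3 summits, 4 of each shared. At 40976447 a dendritic cell summit scored 70, and 86 bp from it the highest 3T3 summit of the locus scored 93 (5.40% of the 3T3 list as high). Windows with most summits were that from 41000001 to 41100000, with 8 dendritic cell (3.45 to 15.8) and 5 3T3 summits (1.62 to 11.7), and that from 40900001 to 41000000, with 5 and 2. The window from 41200001 to 41300000 had 3 3T3 summits and 1 dendritic cell summit.

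No summit of either list was found between these groups at Tcrb. The longest gap was 249.3 kb for dendritic cells and 249.5 kb for 3T3, nearly at the same place. Beyond it, 6 dendritic cell and 6 3T3 summits lay from 41460501 to 41532493, on the side of the constant genes and Ephb6 in the GRCm38 order. The highest dendritic cell summit of Tcrb, 73 at 41460501, lay 12.6 kb from any 3T3 summit, and a 3T3 summit of 68 at 41497813 lay 6.83 kb from any dendritic cell summit. Only 1 pair within 1000 bp was found in this group.

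At Tcrg, 6 dendritic cell summits from 19254222 to 19312681 had no 3T3 summit within 100 kb. Their scores ran from 22 to 35. Another 5 dendritic cell summits and both 3T3 summits lay from 19454391 to 19488701, the side of Stard3nl in the GRCm38 order. The highest scored 72 in dendritic cells, at 19485598, and 60 in 3T3, 283 bp away at 19485881. The next dendritic cell summits scored 53 at 19454391 and 36 at 19471275, with no 3T3 summit within 31.5 and 14.6 kb.

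At Igl, the 6 dendritic cell summits lay from 19153233 to 19245864, with scores from 24 to 39. The highest was at 19179700, and those at 19153233 and 19245864 scored 35 each. The lone 3T3 summit, at 19203219, scored 22 and had a dendritic cell summit 132 bp away. No dendritic cell summit followed for 321 kb past the locus end, on the side of the olfactory receptor genes in the GRCm38 order, and no 3T3 summit for 597 kb.

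**Figure D4:**
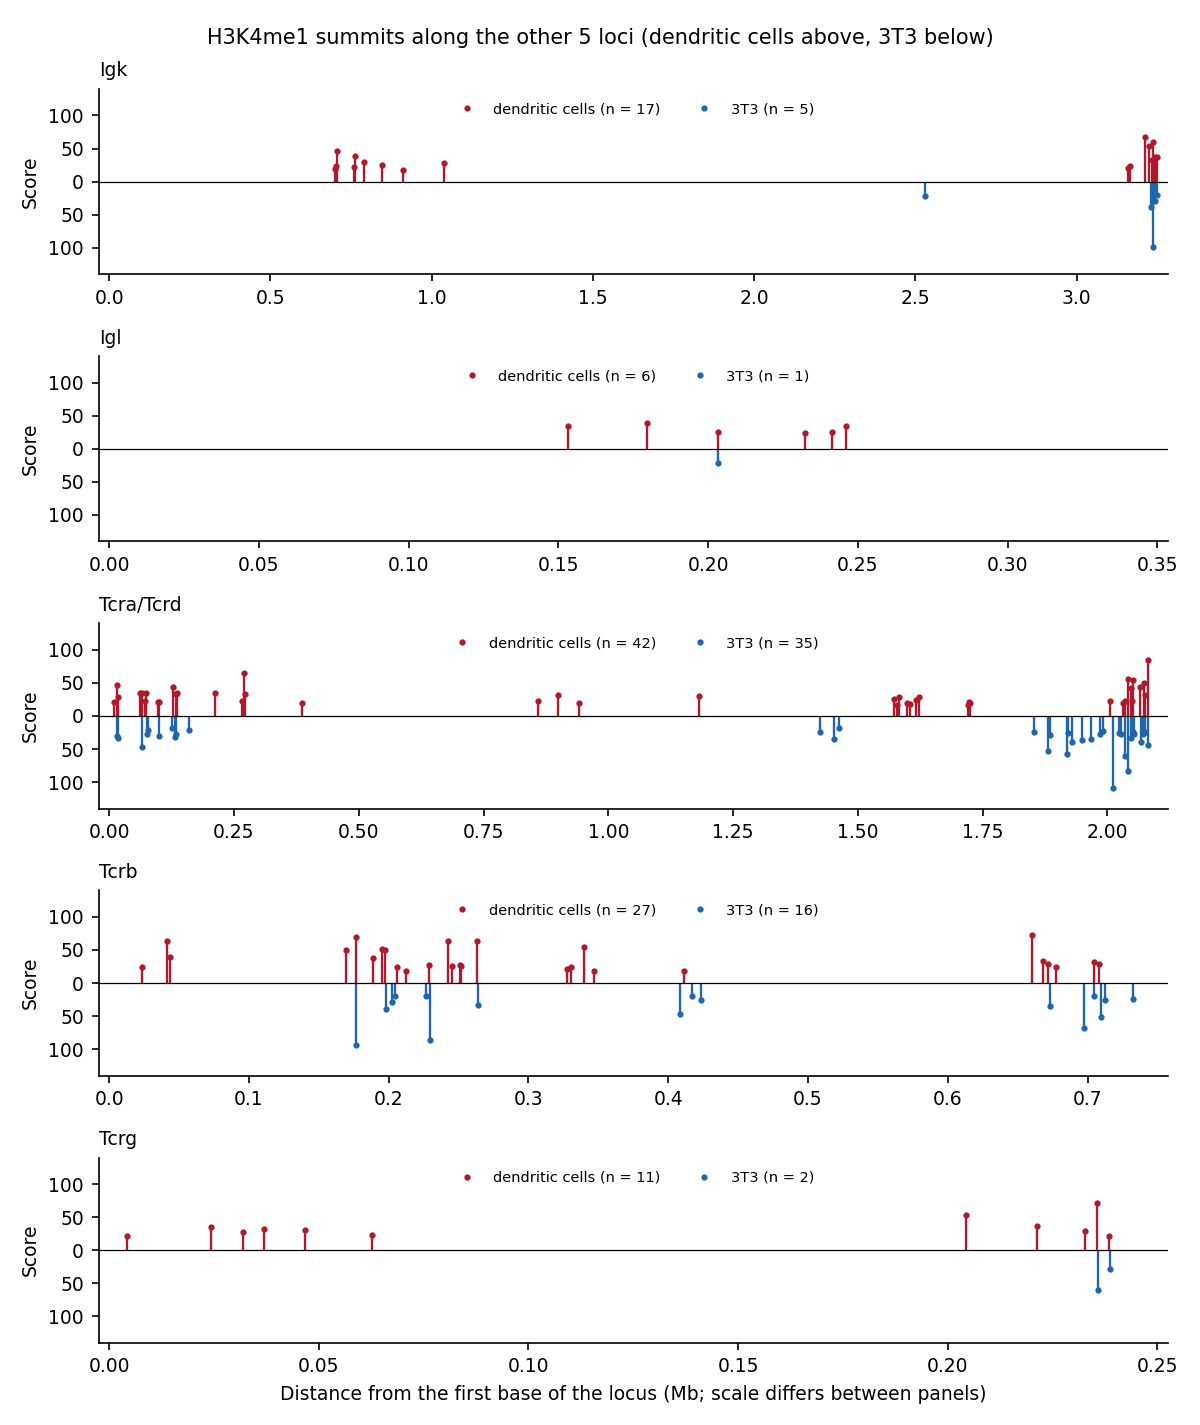
Deposited score of every summit (vertical axes, dendritic cells upward and 3T3 downward) against the distance in Mb from the first base of the locus (horizontal axes, of different scale) at Igk, Igl, Tcra/Tcrd, Tcrb and Tcrg. Both lists leave most of Igk and the middle of Tcrb empty, and at Tcra/Tcrd both are dense at the edges.

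Away from their edges Igh and Igk kept a single 3T3 summit each, while Tcra/Tcrd and Tcrb kept more. With 100 kb left out at both ends, Igh kept 95 dendritic cell summits and 1 3T3 summit over 2.85 Mb, and Igk 9 and 1 over 3.05 Mb. Tcra/Tcrd kept 23 and 18 over 1.9 Mb, and Tcrb 18 and 10 over 0.55 Mb. At Igh, 6 of the 7 3T3 summits thus lay in the outer 100 kb, against 17 of the 112 dendritic cell summits. At Igk it was 4 of 5 against 8 of 17.

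Most dendritic cell summits at the loci had no 3T3 counterpart within 1000 bp. This held for 188 of the 215 (87.4%, exact 95% interval 82.3 to 91.6), where the whole dendritic cell list gave 69.4%. A dendritic cell counterpart was lacking for 40 of the 66 3T3 summits (60.6%, 47.8 to 72.4), where the whole 3T3 list gave 70.2%. By locus, the dendritic cell number without a counterpart was 110 of 112 at Igh, 14 of 17 at Igk, 5 of 6 at Igl, 28 of 42 at Tcra/Tcrd, 22 of 27 at Tcrb and 9 of 11 at Tcrg. The 3T3 numbers were 5 of 7, 2 of 5, 0 of 1, 22 of 35, 11 of 16 and 0 of 2. At every locus but Igh the interval of the dendritic cell share includes that of the list, and at Tcra/Tcrd the share was 66.7%. Igh supplies 112 of the 215 summits, and its stretch without 3T3 summits prompted the choice of loci. Nothing is therefore read from the pooled share. The median distance from a dendritic cell summit to the nearest 3T3 summit was 769.6 kb at Igk, 412.9 kb at Igh, 173.2 kb at Tcrg, 33.7 kb at Igl, 7.82 kb at Tcrb and 4.52 kb at Tcra/Tcrd, against 3.23 kb in the whole list.

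Counted in windows of 100 kb from each locus start, 22 of the 95 full windows held 3 or more dendritic cell summits and no 3T3 summit. Over all chromosomes 2.98% of windows did. Of the 22, 14 were in Igh, 4 in Tcra/Tcrd, 2 in Tcrb, 1 in Igk and 1 in Tcrg. The reverse, 3 or more 3T3 summits and no dendritic cell summit, was met by 3 windows, all in Tcra/Tcrd, and by 7.01% of windows over all chromosomes. A further 48 of the 95 windows were empty in both lists, among them 26 of the 32 in Igk and 12 of the 30 in Igh. Over all chromosomes 9520 of 26409 windows were empty in both. As the loci were chosen from this same contrast, nothing is read from these shares.

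Paired summits mostly had scores that differed by less than 2-fold once scaled to the median of all pairs. There were 26 pairs of mutually nearest summits within 1000 bp, 13 at Tcra/Tcrd, 5 at Tcrb, 3 at Igk, 2 at Igh, 2 at Tcrg and 1 at Igl. Relative to the median of all 24378 pairs, where the dendritic cell score was 1.09 times the 3T3 score, 1 pair stood 2-fold or more toward dendritic cells and 2 pairs toward 3T3. Over all pairs these shares were 11.6% and 11.9%. The pairs beyond 2-fold were at Tcra/Tcrd, 43 in dendritic cells at 52927514 and 19 in 3T3 (2.08-fold), and in the other direction 23 at 54834712 and 61 in 3T3 (2.89-fold). At Tcrb the dendritic cell summit at 41029031 scored 28 and its 3T3 partner at 41029819 scored 86 (3.34-fold).

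The remaining pairs differed by less. At Igh the pair at 117287322 scored 61 in dendritic cells and 29 in 3T3 (1.93-fold), and that at 117419585 scored 38 and 35. Both lay in the last 163 kb of the locus. At Igk the relative log2 ratios were -0.84, 0.23 and 0.77, at Igl 0.12, and at Tcrg 0.14 and -0.54. The other Tcra/Tcrd pairs ran from -0.69 to 0.81, and the other Tcrb pairs from -0.53 to 0.81. With 1 library per cell type, none of these ratios can be set against the spread between libraries.

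**Figure D5:**
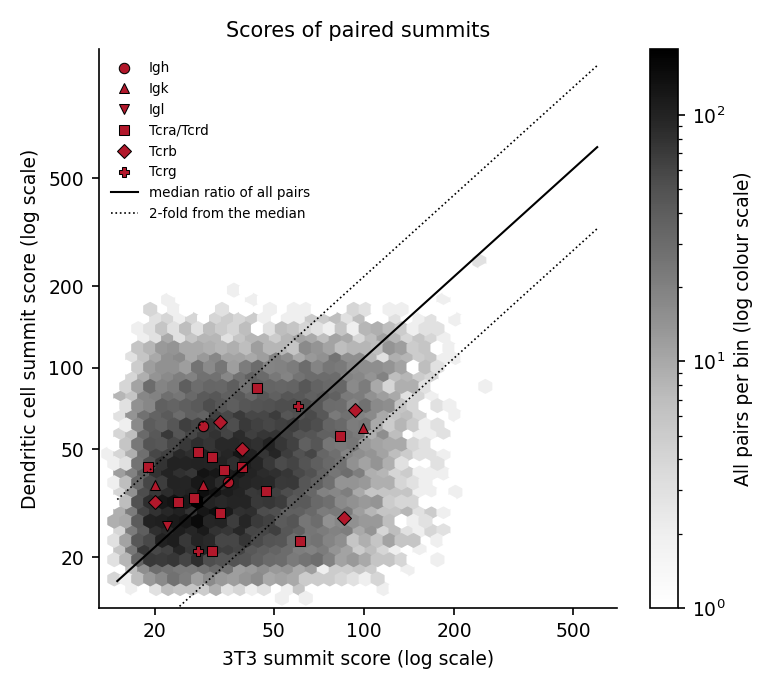
Dendritic cell score (vertical axis, log scale) against 3T3 score (horizontal axis, log scale) of mutually nearest summits within 1000 bp, for the 26 pairs in the loci (red symbols) over all 24378 pairs (grey bins). The solid line is the median ratio of all pairs and the dotted lines are 2-fold from it, and 3 of the 26 red symbols lie beyond them.

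Within the dendritic cell list, the summits of the antigen receptor loci were lower than the list as a whole. The median score was 31 over the 215 summits, against 36 in the list. By locus it was 32.5 at Igh, 29 at Igk, 30.5 at Igl, 28 at Tcra/Tcrd, 29 at Tcrb and 30 at Tcrg, below 36 at all 6. Only 7 of the 215 (3.26%) reached the top decile of the list, a score of 79 or more, where 10.2% of the list did. Of those 7, 6 were at Igh and 1 at Tcra/Tcrd. Scores were not used to choose the loci, but a stretch without 3T3 summits was. Over all pairs within 1000 bp the dendritic cell median was 40, and a smaller share of the locus summits had a counterpart. The comparison is thus not independent of the choice. Summits of 1 library are not replicates and the difference was not tested.

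In 3T3 the median over the 66 summits was 29, against 33 in that list. The medians by locus were 29 at Igh, 29 at Igk, 29 at Tcra/Tcrd and 31 at Tcrb. Igl had 1 summit, of 22, and Tcrg had 2, of 60 and 28. The top decile, a score of 75 or more, was reached by 5 of the 66 (7.58%), where 10.1% of the list did. They were 2 at Tcra/Tcrd, 2 at Tcrb and 1 at Igk. The 25th and 75th percentiles at Igh were 26 and 48.5 in dendritic cells, against 26 and 55 in the list, so the lower part of the distribution was alike and the upper part shorter. At Tcra/Tcrd, 19 of 42 dendritic cell summits (45.2%) scored under 26, where 24.8% of the list did. This share was 41.2% at Igk, 33.3% at Igl, 29.6% at Tcrb, 27.3% at Tcrg and 20.5% at Igh.

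Neighbouring dendritic cell summits at Igh lay a median of 10712 bp apart, against 8173 bp in the list. The closest were 1484 bp apart, and 12 of the 112 (10.7%) had a neighbour within 2000 bp, against 7.68% of the list. At Tcra/Tcrd the median spacing was 6360 bp in dendritic cells and 8830 bp in 3T3, and at Tcrb 7448 and 8099 bp. The long empty parts of these loci enter the median as single gaps only.

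The boundaries of the loci are fixed positions, and summits lie on both sides of them. At the Igh start the dendritic cell summit just inside scored 27, 2.05 kb in, and the one just outside 34, 4.95 kb out. In 3T3 these were 33, 15.8 kb in, and 27, 4.51 kb out. At the Igh end the dendritic cell scores were 28 inside and 24 outside, 8.14 and 7.83 kb from the boundary, and the 3T3 scores 54 and 31, 5.44 and 20.3 kb from it. At the Igk end all 4 summits next to the boundary lay within 6.39 kb of it, with scores of 37 inside and 40 outside in dendritic cells and 20 and 23 in 3T3. At the Igk start the nearest dendritic cell summit outside was 18.3 kb away with a score of 61, and the nearest 3T3 summit outside 69.2 kb away with 44.

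At the Tcra/Tcrd start, dendritic cells scored 21 inside and 56 outside, and 3T3 31 and 24. At its end they scored 84 and 36, and 44 and 19, the last only 4.48 kb outside. Tcrb gave 25 inside and 29 outside at its start in dendritic cells and 93 and 28 in 3T3, and at its end 29 and 32, and 24 and 65. Tcrg gave 22 and 43, and 60 and 59, at its start, and 21 and 49, and 28 and 21, at its end. At both ends of Igl dendritic cells scored 35 inside and 35 outside, and 3T3 scored 22 inside with 25 and 53 outside.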

How the data were processed

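Of the 16 samples, the lists of H3K4me1 in unstimulated dendritic cells and 3T3 were used, 1 library each. Stimulated, acetylation and input samples were not used here. Per the labels' protocols, fixed chromatin was sheared to fragments of about 300 bp, amplified for 18 PCR cycles and read for 36 bp. Alignment with Bowtie and peak calling with MACS 1.4 on mm9 are taken from the submitters' processing notes. Calling used a threshold of 1e-04 and a shift of 150, with neither a fragment model nor a local background, per the file headers. The sources used here do not say whether input entered the calling. The score the authors deposited for each summit, a whole number of at least 13, was taken as a signal, the height of the MACS peak at its summit, with no scaling recorded. Read totals are not given, so the depth is unknown.

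Loci and gene lists were chosen with earlier results of these data known. A counterpart is a summit of the other list within 1000 bp. Counts carry exact Poisson, shares exact Clopper-Pearson, and count ratios exact conditional binomial 95% intervals. None was tested, for want of replicates. Windows of 100 kb start at the locus start (those under full length left out), or at the first base of each chromosome for all chromosomes. Groups within a locus are runs of summits with gaps of at most 100 kb. Named are the 3 highest summits of each list per locus, all pairs within 1000 bp (those within 2-fold at Tcra/Tcrd and Tcrb by their range), the summits at each boundary, and the 2 fullest windows of each list in loci over 500 kb, where they held a summit. Code was checked on simulated lists with planted neighbours. Gene names come from RefSeq for GRCm38, whose positions were not used. No mm9 sequence was at hand, so none is printed. Alternatives were other score thresholds, distances, boundaries, scalings and windows, and merged summits. Python 3.11.15, numpy 2.4.6, pandas 2.3.3, scipy 1.17.1 and matplotlib 3.10.9 were used.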

Additional observations from a re-analysis of the deposited data

How the results depend on the processing

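Of 69 values recomputed under other settings, 56 stayed within their interval (for counts, within 1.5 times) and 13 moved. Taking only the 39898 highest summits of either list, the loci held 83 dendritic cell and 25 3T3 summits, the log2 ratio at Igh was 4.70, and at Tcra/Tcrd it turned to -0.53. At Tcra/Tcrd it was also negative at scores from the 25th percentile up (-0.29) and against the flanking 2 Mb (-0.31). All 3 intervals include 0, so no direction is given there. Shortened by 100 kb at both ends (Igl and Tcrg, too short for this, left out), the loci held 30 3T3 summits, and widened by 100 kb they held 111. The Igh log2 ratio was 6.61 when shortened (95 and 1 summits) and 2.59 when widened (135 and 23), since most 3T3 summits lie at the edges. The Igk ratio fell to 0.82 when widened, with an interval of -0.06 to 1.75. Relative to the flanks the Tcrg interval, -0.40 to 5.01, included 0. So did, among the highest summits and from the 25th percentile up, the intervals of Igk (from -0.59 and -0.13) and Tcrg (from -2.05 and -0.23).

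The dendritic cell share without a counterpart was 92.1% at 500 bp and 78.6% at 5000 bp, and the 3T3 share 74.2% and 36.4%. Shares of the whole lists were not computed at these distances, so these values cannot be set against the lists. Dendritic-cell-only windows numbered 22 of 95, 13 at 5 or more summits, and 11 of 38 with windows of 250 kb. Over all chromosomes these last 2 settings gave 1.60 and 2.84%. For Igl no ratio among top-scoring summits was possible, as no 3T3 summit was left. No paired analysis was possible because each cell type is 1 library and the labels give no replicate numbers. With the depth and the treatment of reads that match several places unknown, absence of a summit shows only that none is in the list.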
